A study of Mus musculus with 2 samples.

Results

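The Sfmbt2 intronic miRNA cluster is a tandem array of small RNA genes inside an intron of Sfmbt2, which encodes a Polycomb-group protein. Members were the miRNA genes of GENCODE annotation M21 with a symbol starting with Mir466, Mir467, Mir669 or Mir297 on chromosome 2, with the window set at mm10 positions 10466663 to 10518279. This rule uses symbols and positions and no measured value. It gave 71 of the 2202 miRNA genes listed in the deposited tables. They are 23 Mir466, 14 Mir467, 29 Mir669 and 5 Mir297 genes.

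The data are microRNA-seq counts of hippocampal tissue. The animals were male B6CASTF1/J mice, the first-generation cross of C57BL/6J with CAST/EiJ, aged 2 months and obtained from The Jackson Laboratory. The libraries held fragments under 30 nt. There was 1 group with 2 biological replicates, no treatment and no control group, so the comparisons are between genes and between the 2 libraries. The labels give separate biosamples but the same donor entry, and the spread between these samples may be partly technical.

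MicroRNAs are cut from hairpin precursors by Drosha and Dicer, and 1 arm is loaded into an Argonaute protein, where its seed, bases 2 to 8, pairs with target mRNAs. The Sfmbt2 array is found in rodents and grew by tandem duplication within the intron. Sfmbt2 is an imprinted gene that is expressed from the paternal allele in extraembryonic tissues, and the array is best known from placenta and early embryonic cells. The counts do not separate the parental alleles of the cross.

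The families are rich in alternating purines and pyrimidines, which is shown here on relatives outside the intron. Symbols matched a RefSeq mature sequence (GRCm38.p6) for 8 of the 10 genes of these families elsewhere in the genome and for 0 of the 71 members, so no mature arm of a member was used. The following 6 mature sequences, written 5′ to 3′ with the seed in capitals, were picked to show each family with an entry.
mmu-miR-467f, chr11:69635419-69635439, minus strand: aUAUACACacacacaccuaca
mmu-miR-467g, chr5:34732872-34732892, minus strand: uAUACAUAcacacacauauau
mmu-miR-467h, chr9:115381898-115381919, plus strand: aUAAGUGUgugcauguauaugu
mmu-miR-669n, chr3:115979905-115979924, plus strand: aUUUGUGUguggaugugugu
mmu-miR-466i-3p, chr13:17747552-17747573, plus strand: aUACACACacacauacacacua
mmu-miR-466k, chr3:85467396-85467418, plus strand: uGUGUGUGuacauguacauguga

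The seeds recurred in the members' hairpins to different extents. The seed UACACAC of mmu-miR-466i-3p was present on the transcribed strand of 64.8% of member hairpins and of 6.29% of the other 2131 miRNA genes. AUACAUA, the seed of mmu-miR-467g, was present in 87.3% and 3.80%, and GUGUGUG, from mmu-miR-466k, in 60.6% and 7.84%. Shares were lower for UAUACAC of mmu-miR-467f, at 14.1% of members and 4.83% of other genes, and for UUUGUGU of mmu-miR-669n, at 12.7% and 2.25%. UAAGUGU, from mmu-miR-467h, was in 1 member (1.41%), Mir467e, and in 0.610% of other genes. A match in a hairpin does not say that the letters form the seed of that gene's product. No member held any of the 8 RefSeq sequences whole. Dinucleotides TG, GT, CA and AC together made up a median of 51.2% of the dinucleotides in member hairpins (range 32.5 to 66.7%), against a median of 26.8% in the other miRNA genes. GC content was also lower, with medians of 36.1% and 51.3%. The predicted folding energy per base of the members had a median of -0.41 kcal/mol, and that of the other genes -0.37. High shares of these dinucleotides and low GC content were not particular to the members. The 10 genes of the same families outside the window had medians of 55.4% for the dinucleotides and 38.9% for GC. The 46 miRNA genes in the window with other symbols had medians of 38.3% and 38.7%.

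All 71 members lie on the plus strand, as does Sfmbt2 (ENSMUSG00000061186.15, chromosome 2, positions 10370510 to 10595253). They span 51.6 kb and share no base with an Sfmbt2 exon. The intron that holds them runs from 10461473 to 10523944 and is intron 10 of 1 protein-coding transcript and intron 11 of another. The centre of the array is a repeated unit in which a Mir467 gene is followed by a Mir466 gene, a median of 288 nt downstream, and then by a Mir669a or Mir669p gene a further 227 nt downstream. This triplet occurs 11 times. Successive Mir467 genes start a median of 2450 nt apart (range 1909 to 4880). In all, 24 members have a hairpin identical to that of another member. The largest such group holds 9 Mir669a genes, from Mir669a-4 to Mir669a-12, and the next holds 6 Mir467a genes.

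The 2 libraries differed in depth. Replicate 1 held 6441333 reads and 2322520 counts on miRNA genes, and replicate 2 held 10003856 reads and 3414105 counts. Values are counts of reads on the strand of the gene, scaled to 1000000 miRNA-gene counts per library (CPM). A count of 0 allows up to 3 counts, or 1.29 CPM in replicate 1 and 0.879 CPM in replicate 2. Intervals and this floor cover counting error only, since reads without molecular identifiers are not independent molecules. Reads that mapped to several places, 42.6% and 46.0% of the libraries, were in no gene's count. The neuron-enriched marker genes, among them Mir132 and Mir137, had 11 of 13 genes detected and summed to 33310 and 47982 CPM. Stem-cell markers from the Mir290 and Mir302 clusters had 0 of 10 genes detected and summed to 2.15 and 2.64 CPM. Markers of endothelial cells (Mir126a), erythroid cells, leukocytes and choroid plexus were all detected, at sums of 590 CPM or more in each library. Which cells the cluster's reads came from was not tested.

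A small part of the array accounted for the counts placed on it. The members together had 3443 counts in replicate 1 and 4209 in replicate 2, or 1482 and 1233 CPM (mean 1358 ± 177, SD, n = 2). This was 0.148% of miRNA-gene counts in replicate 1 (Wilson 95% interval 0.143 to 0.153) and 0.123% in replicate 2 (0.120 to 0.127). The intervals do not overlap, and the share was higher in replicate 1. A gene was called detected where each library gave it at least 2 CPM. By this definition 8 of 71 members (11.3%) were detected, beside 18.2% of all listed miRNA genes. Another 2 members had counts below that level. The other 61 (85.9%) had 0 counts in both libraries, beside 67.5% of all listed miRNA genes.

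**Figure D1:**
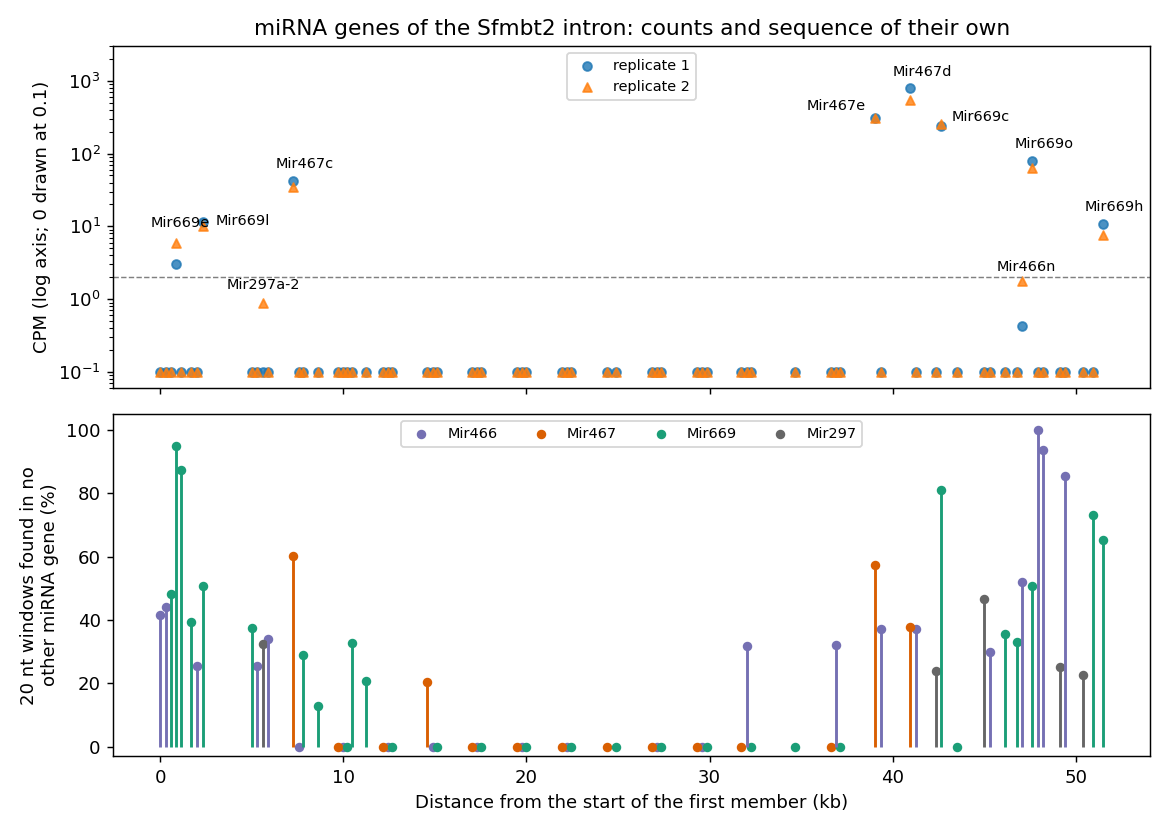
Upper panel, CPM (log axis, 0 drawn at 0.1, dashed line at 2 CPM) of the 71 cluster genes in replicate 1 (circles) and replicate 2 (triangles) against distance from the start of the first gene (kb). Lower panel, share (%) of each gene's 20 nt windows found in no other miRNA gene, coloured by family. The central 38 genes between Mir467c and Mir467e are all at 0. Counts lie on both sides of them, with 96.2% and 95.8% of the counts in replicates 1 and 2 downstream.

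The Mir467 family gave most of the counts placed on the cluster. Mir467 genes summed to 1139 and 892 CPM in replicates 1 and 2 with 3 of 14 members detected, and Mir669 genes to 343 and 338 CPM with 5 of 29 detected. No Mir466 gene of 23 and no Mir297 gene of 5 was detected, where 18.2% of all listed miRNA genes were. Their sums were 0.431 and 1.76 CPM for Mir466, and 0 and 0.879 CPM for Mir297. The sum of the Mir669 genes thus differed little between the libraries, and the difference in the cluster's sum lay in the Mir467 genes. Reads that mapped to several places are missing from all these sums. Every 20 nt window was also in another miRNA gene for 10 of 14 Mir467, 13 of 29 Mir669 and 9 of 23 Mir466 genes. This held for 0 of 5 Mir297 genes.

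Mir467d (ENSMUSG00000077021.2, positions 10507630 to 10507714) was the leading member, with 1828 counts or 787 CPM in replicate 1 (Wilson 95% interval 752 to 824) and 1865 counts or 546 CPM in replicate 2 (522 to 572). It ranked 97 and 121 among the 2202 genes. It held 53.1% of the cluster's counts in replicate 1 (51.4 to 54.8) and 44.3% in replicate 2 (42.8 to 45.8). The other members together were at 695 and 687 CPM, so their sum differed far less between the libraries than Mir467d did. This holds for the sum and not for each member.

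Mir467e (ENSMUSG00000076948.2, positions 10505721 to 10505807), the neighbouring Mir467 gene upstream, followed with 721 and 1062 counts, or 310 and 311 CPM (mean 311 ± 0.441, SD, n = 2). Its 2 values were nearly equal. Mir467d exceeded it 2.54-fold in replicate 1 and 1.76-fold in replicate 2. Mir467c (ENSMUSG00000077049.2, positions 10473931 to 10474027), in the upstream part of the array, had 97 and 118 counts, or 41.8 and 34.6 CPM (38.2 ± 5.09). The 3 detected Mir467 genes thus covered a range in which Mir467d exceeded Mir467c 18.8-fold and 15.8-fold.

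Among the Mir669 genes, Mir669c (ENSMUSG00000076118.1, positions 10509296 to 10509404) led with 554 and 862 counts, or 239 and 252 CPM (246 ± 9.86, SD, n = 2). Mir669o (positions 10514300 to 10514395) had 183 and 213 counts, or 78.8 and 62.4 CPM (70.6 ± 11.6). Mir669c exceeded Mir669o in both libraries, 3.03-fold and 4.05-fold.

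The remaining detected members were rare. Mir669l (positions 10468971 to 10469068) had 27 and 34 counts, or 11.6 and 9.96 CPM. Mir669h (positions 10518155 to 10518279), the last gene of the array, had 25 and 26 counts, or 10.8 and 7.62 CPM. Mir669e (positions 10467495 to 10467613) had 7 and 20 counts, or 3.01 and 5.86 CPM. Detected members spanned a 261-fold range in replicate 1 and a 93.2-fold range in replicate 2, with Mir467d highest and Mir669e lowest in both. Their order was the same in both libraries. The Wilson intervals of Mir669l and of Mir669h each overlapped between the libraries. In replicate 2 the intervals of Mir669l (7.13 to 13.9 CPM), Mir669h (5.20 to 11.2) and Mir669e (3.79 to 9.05) overlapped one another. CPM were not divided by hairpin length, on the assumption that fragments under 30 nt come from the mature product. Where the reads fall within a hairpin was not examined.

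Below these lay Mir466n, with 1 and 6 counts, or 0.431 and 1.76 CPM, and Mir297a-2, with 0 and 3 counts. Mir297a-2 was at or under the floor in both libraries. The 3 leading members held 90.1% ± 0.0732 (SD, n = 2) of the cluster's counts and the 5 leading members 98.1% ± 0.263.

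**Figure D2:**
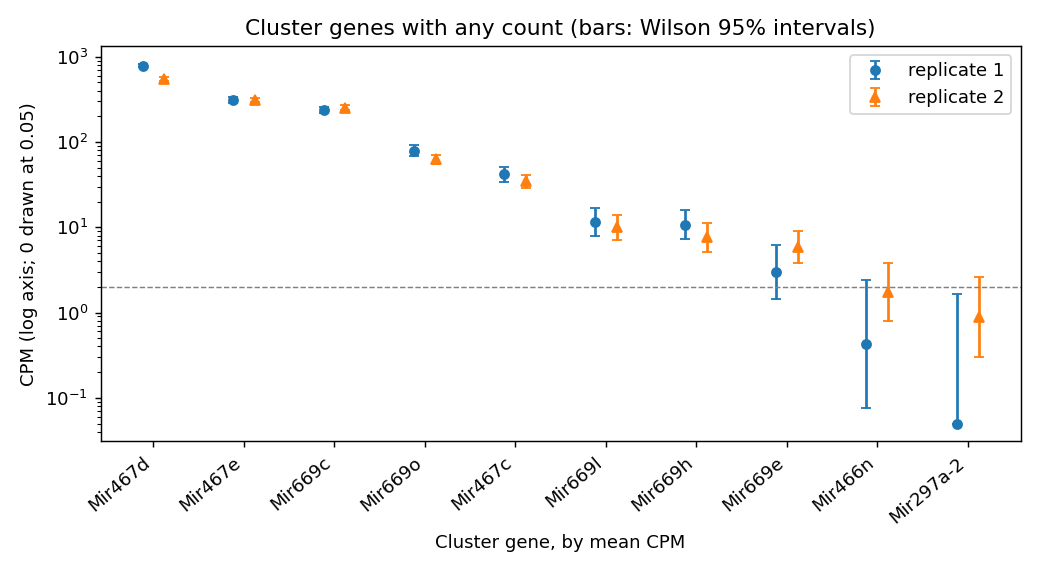
CPM (log axis, 0 drawn at 0.05, dashed line at 2 CPM) of the 10 cluster genes with any count in replicate 1 (circles) and replicate 2 (triangles), with Wilson 95% intervals as bars. The intervals of Mir467d, 752 to 824 and 522 to 572 CPM, do not overlap between the libraries.

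**Figure D3:**
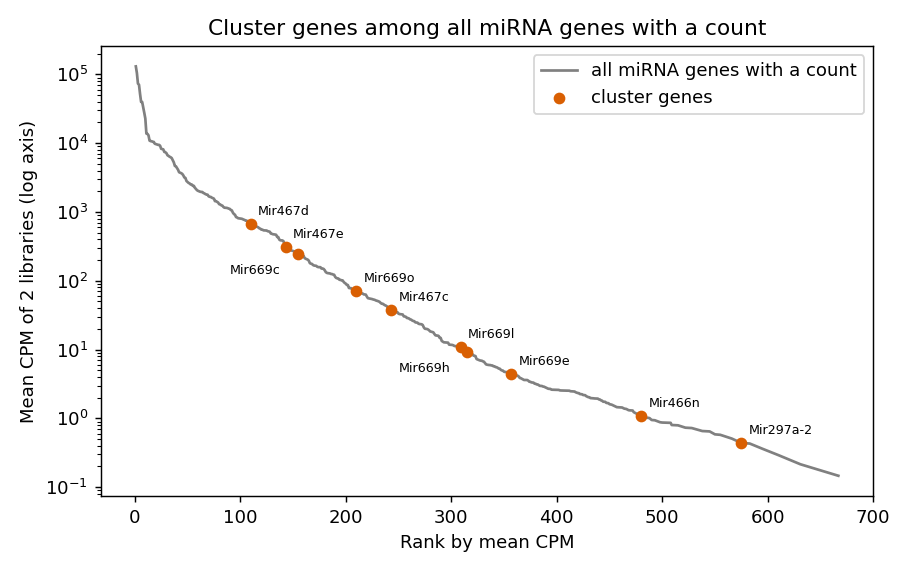
Mean CPM of the 2 libraries (log axis) against rank for all miRNA genes with a count (grey line), with cluster genes as points. Mir467d has rank 110, Mir467e rank 143 and Mir669c rank 155.

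All 10 members with a count had some sequence of their own. Each hairpin was read in windows of 20 nt, about the length of the fragments, and a window was called its own when no other listed miRNA gene at another place held it on either strand. Of the 71 members 70 shared at least 1 window with another miRNA gene, against 47.7% of the other miRNA genes. Sharing was as common in the 46 genes of the window with other symbols (97.8%), and was 90% in the 10 family genes outside it. In 32 members (45.1%) no window was their own, against 12.6% of all miRNA genes outside the cluster. The share was 47.8% in those 46 genes and 0% in those 10. A 20 nt read inside a sequence with no own window matches several genes, and multimapping reads were in no gene's count. A count of 0 for these 32 members therefore gives no level. Genes with no own window were not all at 0, since those outside the cluster had 55 and 53 counts in replicates 1 and 2.

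All 32 members without a window of their own had 0 counts in both libraries. Of the 39 members with some, 8 were detected (20.5%), beside 391 of 1862 other miRNA genes with some (21%). Of the 269 other genes without one, 2 were detected. The median share of own windows was 37.3% in these 39 members and 100% in these other genes, so they were unlike in this respect. At 50% or more own windows, 7 of 13 members (53.8%) and 390 of 1535 other genes (25.4%) were detected. That minimum was chosen after seeing the data, and the share among members depends on where it is set. Detected Mir669l and Mir669o lie just above it, both at 50.6%. Mir669f, with 0 counts, lies just below at 48.0%, and the leading member Mir467d is also below at 37.9%. These shares are a description and were not tested. Across members with any count, the share of own windows ranged from 32.4% in Mir297a-2 to 95% in Mir669e.

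The amount of sequence of its own did not order the levels. Mir467d, the highest, had 37.9% own windows and shared a stretch of 60 nt with another gene. Mir467e had 57.4% and a longest shared stretch of 48 nt, Mir467c 60.3% and 48 nt, and Mir669c 81.1% and 36 nt. Mir669e, the lowest detected member, had 95% and 24 nt. Which reads of a member could be placed depends on where its mature arms fall, and the table of mature sequences did not cover them. The levels of members relative to each other are therefore levels of placed reads.

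**Figure D4:**
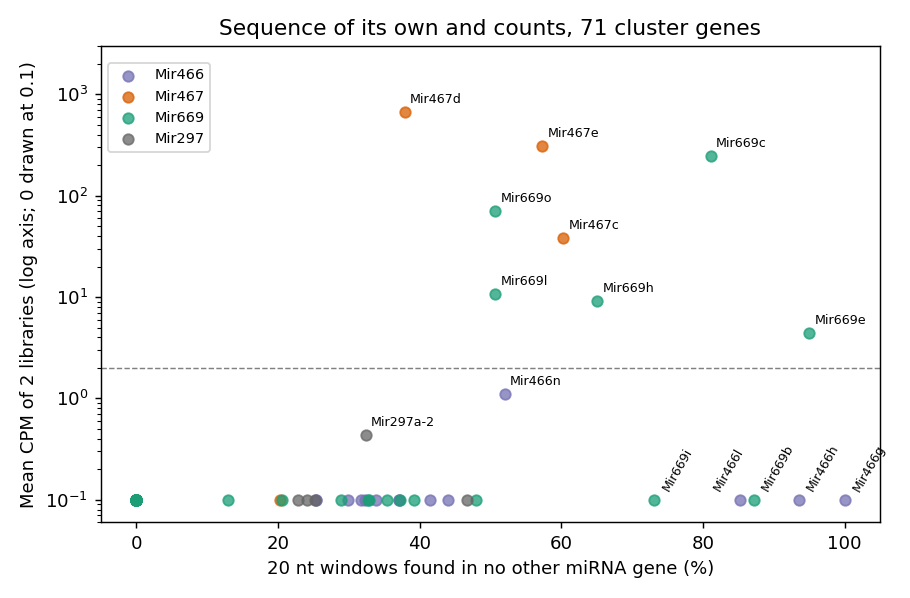
Mean CPM of the 2 libraries (log axis, 0 drawn at 0.1, dashed line at 2 CPM) against the share (%) of 20 nt windows found in no other miRNA gene, for the 71 cluster genes coloured by family. Points at 0% are all at 0 CPM, and 5 genes above 70% also have no count.

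The longest stretch of members without a count ran from Mir466b-1 to Mir669a-12, 38 genes over 29.7 kb in the centre of the array. Of these, 31 had no window of their own, and the other 7 were Mir669a-3, Mir669k, Mir669g, Mir669j, Mir467b, Mir466b-2 and Mir466b-3, with 13.0 to 32.7% own windows. Mir669a, a product known for restraining the muscle programme in cardiac progenitors, comes from this stretch in most of its copies. The 13 genes upstream of it included 3 detected members and the 20 downstream included 5. The downstream genes held 96.2% of the cluster's counts in replicate 1 and 95.8% in replicate 2.

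Sequence of its own was not accompanied by counts in every member, nor in most other miRNA genes. Of the 39 members with own windows, 29 (74.4%) had 0 counts, beside 1160 of 1862 other genes with some (62.3%). At 50% or more own windows, the minimum chosen after seeing the data, it was 5 of 13 members (38.5%). Among other genes it was 844 of 1535 (55.0%). Of the 29 members with own windows and 0 counts, Mir466g had 100% own windows, Mir466h 93.5%, Mir669b 87.2%, Mir466l 85.3% and Mir669i 73.1%. These 5 were named after their values were seen. Mir466h is known for promoting apoptosis in cultured cells and Mir466l for binding the Il10 transcript. Searching all annotated transcripts in place of miRNA genes lowered their shares to between 69.4% and 93.4%. Each was under 1.29 CPM in replicate 1 and 0.879 CPM in replicate 2. Matches elsewhere in the genome, in repeats or introns, were not searched.

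Some genes next to a counted member were at 0, as were 61 of the 71 members in all. Mir466, which starts 288 nt downstream of Mir467d, had 37.0% own windows and 0 counts, and Mir466p, next to Mir467e, had 37.1% and 0 counts. Mir669b, downstream of Mir669e, also had 0. In the same intron window lie 46 miRNA genes with other symbols, all of them at 0 counts, of which 22 had no window of their own. The 10 genes of the same families outside the intron had 2 counts in each library, all on Mir466q. No member had a count on the opposite strand in either library.

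The Dlk1-Dio3 domain, another imprinted array of miRNA genes, is given for scale. Between Mir770 and Mir410, 50 of its 64 genes were detected, at sums of 113586 and 109590 CPM. No gene there lacked a window of its own, and 7 of 64 shared a window with another gene. The difference between the domains was not tested.

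Between the libraries, Mir467d and Mir669o differed beyond counting error and 6 detected members did not pass the test. Counts were compared with an exact binomial test, two-sided, on library sizes scaled by TMM, and p-values were adjusted by Benjamini-Hochberg over all 401 detected genes. Of the members tested, 2 of 8 members differed at an adjusted p under 0.05, beside 50.9% of all detected genes. Both were lower in replicate 2. For Mir467d the log2 ratio of replicate 2 to replicate 1 was -0.55, a 1.47-fold difference (exact binomial test, adjusted p = 2.94e-30). For Mir669o it was -0.36, or 1.29-fold (exact binomial test, adjusted p = 0.0282), and this call was lost when every gene with a count was tested (adjusted p = 0.0688). The median difference was 1.26-fold in the 8 members and 1.26-fold in all detected genes.

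The other 6 did not pass. Mir669e was 1.83-fold higher in replicate 2 on 7 and 20 counts (exact binomial test, adjusted p = 0.274). Mir467e and Mir669c, the next members by level after Mir467d, differed 1.02-fold and 1.04-fold (exact binomial test, adjusted p = 0.866 and 0.632). The test compares 2 libraries and not conditions.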

How the data were processed

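The deposited values were whole-number counts of reads per miRNA gene made by the authors and not normalized, with a table for each library. The labels name mm10 as the assembly. Aligner, counter and annotation release are not given in the sources used here. All 2202 gene identifiers, versions included, were found in GENCODE M21. The same-strand column was used, and the 4 lines that name no gene (multimapping, unmapped, no-feature and ambiguous reads) stayed out of CPM. Unmapped reads were 16.2% and 15.1% of replicates 1 and 2, no-feature reads 5.16% and 4.70%, and ambiguous reads 0%.

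Symbols, positions and hairpins came from M21. Hairpins were used for windows of 20 nt, for composition and for folding (RNAfold 2.7.2). Windows shared only with a gene at an overlapping position counted as a gene's own. Mature sequences came from RefSeq. The rule for members uses annotation alone, but the cluster, lists and tests were chosen with earlier results of these data known. The genes named were the detected members and the 4 next below, of which only 2 had a count. Other members were named after their values were seen. Libraries were compared by exact binomial tests (scipy 1.17.1) with edgeR 4.0.16 TMM factors of 0.991 and 1.01. The test was checked on simulated counts drawn with counting error only, so this check does not cover spread between samples. With 1 group, no quasi-likelihood test was possible. Alternatives covered the strand column, the scaling total, the detection minimum, DESeq2 1.42.0 size factors, the filter and the window length.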

Additional observations from a re-analysis of the deposited data

How the results depend on the processing

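The cluster's summed CPM, 1358, became 478 when scaled to all reads of the library, unplaced ones included. With both strands together it was 1466, on a smaller total. Leaving out a replicate gave 1233 to 1482 CPM and a share of Mir467d of 44.3 to 53.1%. The number of detected members, 8, ranged from 7 to 9 over minimums of 1 CPM, 5 CPM and 1 count, over the scaling totals, and with all miRNA genes of the window counted. By the exact binomial test, the count of members that differed between the libraries was also 2 of 8 with DESeq2 size factors, plain totals or both strands, where 48.9 to 51.1% of all genes tested differed. When every gene with a count was tested, 1 of 10 members differed, beside 210 of 715 genes (29.4%). When a difference of at least 1.5-fold was also asked, an alternative chosen after seeing the data, 0 of 8 members differed, beside 75 of 401 genes (18.7%). Windows of 18 and 22 nt, and all annotated transcripts, left 32 members without a window of their own. These window alternatives were also chosen after seeing the data, apart from the count of 70 sharing members, which held at both lengths. The planned search of mature arms in the genome was not run, since no genome sequence was used here. Among the detected members, Mir669e had the lowest counts, 7 and 20.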
